A study of Mus musculus with 4 samples.

Results

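MHC class II genes were followed by RNA sequencing in microglia, which are brain-resident macrophages, sorted by fluorescence from mouse embryos at embryonic day 14. The 10 genes described here were chosen by name as the class II pathway: the chains H2-Aa, H2-Ab1 and H2-Eb1, the invariant chain Cd74, the peptide loading genes H2-DMa and H2-DMb1, the transactivator Ciita and the co-stimulators Cd80, Cd86 and Cd40. The choice was made with earlier results of these data known. All 10 were among the 16655 genes that both deposited tables hold, and all 10 passed the filter on low counts that left 15236 genes for the test. The knockout library came from a conditional Arid1a knockout (Arid1acKO, written Arid1a cKO below) and was set against floxed Arid1afl/fl controls, all of the strain C57BL/6. Arid1a belongs to the BAF complex, which moves nucleosomes, and the study asked about microglia homeostasis and how neural progenitors respond.

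The labels list 2 knockout and 2 control samples, and counts were analysed for 1 knockout library (replicate 2) and 2 controls (replicates 5 and 6). Knockout replicate 1 was not analysed here. The knockout is thus unreplicated, while controls are given one by one or as mean ± SD with n = 2. Pooling of embryos, and whether each sample was its own animal, are not given in the labels, so any p-value covers only the spread among these samples, perhaps a technical one. Neither the Cre line nor its promoter is named in the labels. As tissue the protocol names cortex, and the design text names telencephalon. The libraries held 13774075 to 18608979 counted reads, so 1 read was worth 0.0537 to 0.0726 CPM (counts per 1e6 counted reads) before scaling. Gene levels in CPM below are scaled for depth with TMM factors, so 1 read differs somewhat from these values. Arid1a itself had 68.9 CPM in the knockout library, against 109 CPM in control 5 and 130.4 CPM in control 6 (log2 fold change -0.80, SE 0.41, adjusted p = 0.901 by the edgeR test described below).

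Class II molecules are pairs of an alpha and a beta chain that present peptides from the endosomal pathway to CD4 T cells. The invariant chain CD74 occupies the groove of a new pair and guides it to endosomes, where cathepsins degrade CD74 and the H2-DM pair exchanges its remnant for other peptides. CIITA is the co-activator that switches these genes on at a shared promoter module, to which RFX, CREB and NF-Y proteins bind. CD80 and CD86 deliver the second signal to T cells through CD28, and CD40 receives the T cell signal CD40L. Resting microglia are known for low class II levels, which rise with activation.

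The promoter module is shown because it is the known binding site through which CIITA acts, and because 3 of the 10 genes were found to carry it. Promoter windows from RefSeq on GRCm38.p6 were found for 5 of the 10 genes, and the 250 bases before the annotated start were searched on both strands. The search was for GNAAC, the core of the X box that RFX binds, followed after 15 to 35 bases by GATTGG, the core of the Y box that NF-Y binds. These letters and this spacing were set after the windows had been read. This spaced pair stood in those 3 of the 5 (H2-Aa, H2-Eb1 and H2-DMb1), in H2-Oa, H2-Ob and H2-Eb2 among 4 related genes with a window, and in 1.05% of all 32851 windows. It was not matched in the windows of H2-DMa or Cd80, and for H2-DMa these windows lie upstream of the gene start that the deposited tables use. Alone, GATTGG stood in 14.6% and GNAAC in 79.6% of all windows. Each sequence runs 5′ to 3′ on the strand of its gene, with both cores in capitals, for 2 members and for 2 related genes whose values follow.
H2-Aa (chr17:34287859-34287919, minus strand): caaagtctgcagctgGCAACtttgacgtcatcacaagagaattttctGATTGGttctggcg
H2-Eb1 (chr17:34305761-34305820, plus strand): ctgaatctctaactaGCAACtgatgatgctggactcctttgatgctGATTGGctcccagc
H2-Oa (chr17:34092288-34092348, plus strand): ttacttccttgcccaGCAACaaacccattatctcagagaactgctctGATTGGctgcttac
H2-Ob (chr17:34238803-34238860, plus strand): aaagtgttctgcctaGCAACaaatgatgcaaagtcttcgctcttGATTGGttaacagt
The cores are 27 bases apart in H2-Aa, H2-DMb1 and H2-Oa, 26 in H2-Eb1 and 24 in H2-Ob. The Y core ends 38 to 56 bases before the RefSeq start in these 5 genes. In H2-Eb2 the cores are 26 bases apart and the Y core ends 95 bases before the start. The H2-DMb1 match (chr17:34153082-34153142) lies in the first exon of the gene as GENCODE draws it, so its letters are not printed.

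The 3 classical chain genes were lower in the knockout library than in either control, at 37% to 42% of the control mean, and Cd86 and Cd80 at 50% and 42%. H2-DMb1 was also below both controls. In bulk RNA, fewer cells of a type and less RNA per cell cannot be told apart. H2-DMa stood slightly above both, and Cd74, Ciita and Cd40 did not separate the genotypes. None of the 10 genes passed the test (edgeR quasi-likelihood, Benjamini-Hochberg adjusted over all 15236 genes, smallest adjusted p = 0.669 for Cd86). At an unadjusted p under 0.05 there were 3 of the 10 (H2-Ab1, H2-Aa and Cd86), against 6.00% of all genes tested. DESeq2 called 0 as well, with 2 at that unadjusted p. Over all genes, 0.0131% were called higher and 0.0263% lower, 6 genes in all.

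By position alone, the knockout library was below both controls in 7 of the 10 genes, where 31.1% of all genes tested lay below both, and above both in 1, where 38% did. Since the genes were chosen with earlier results of these data known, these shares describe the list and do not test it. The same holds for the share at an unadjusted p given above. The 7 include Cd74, which lay below control 6 by less than its counting error. Scaled by library totals or by upper-quartile factors Cd74 lay between the controls, which leaves 6. The median log2 fold change of the 10 was -0.94, beside 0.05 over all genes tested. Both ratios of a gene share the 1 knockout library, so its own deviation enters each.

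**Figure D1:**
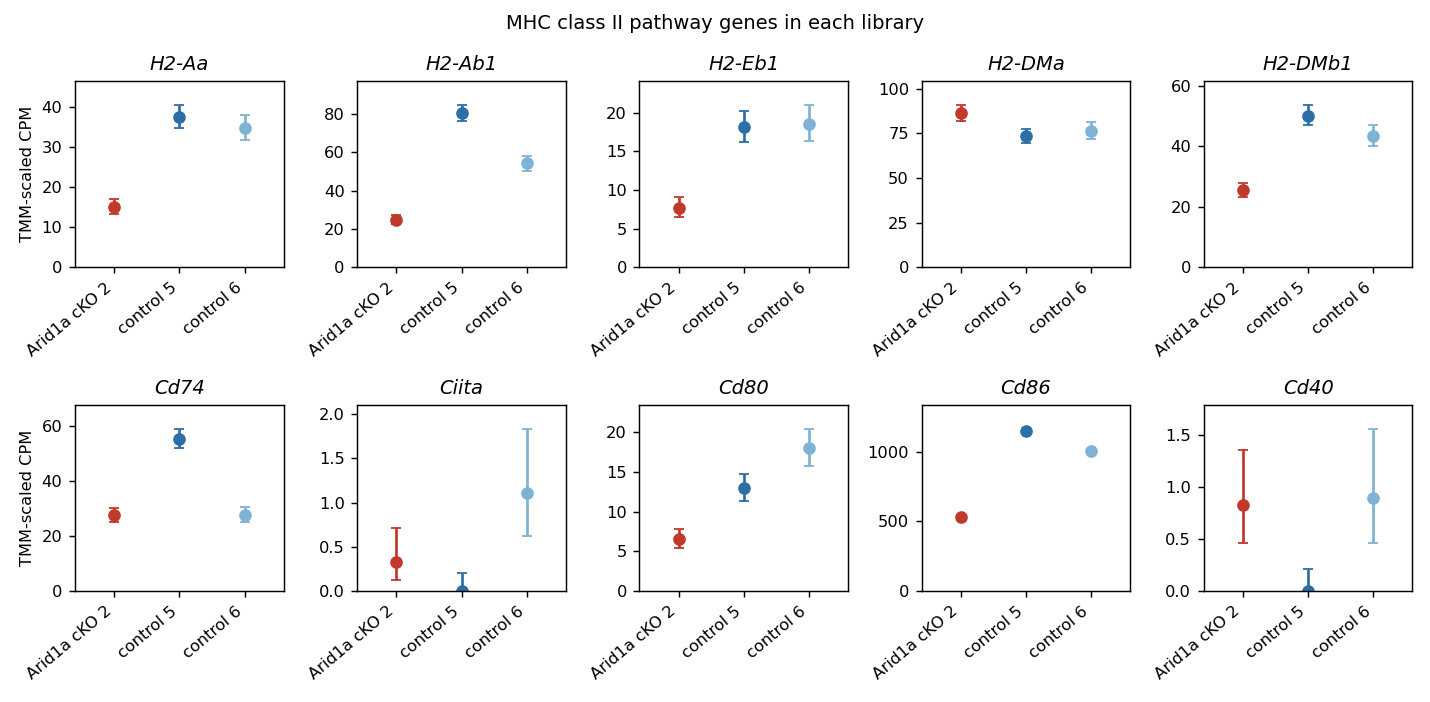
TMM-scaled CPM of each gene (y axes from 0, scales differ) in the knockout library and in each control, with exact 95% Poisson intervals that cover counting error only. The knockout point lies below both controls with intervals apart in H2-Aa, H2-Ab1, H2-Eb1, H2-DMb1, Cd80 and Cd86, and at 27.4 CPM meets control 6 at 27.6 CPM in Cd74.

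H2-Aa (ENSMUSG00000036594, chromosome 17, 34282744 to 34287827, minus strand), the alpha chain of I-A, had 275 reads in the knockout library, against 669 in control 5 and 468 in control 6. Scaled for depth with TMM factors this was 15.1 CPM (exact 95% Poisson interval 13.3 to 16.9, counting error only) against 36.0 ± 1.90 CPM in controls (SD, n = 2). The controls differed from each other by 0.11 on the log2 scale, far less than the log2 fold change of -1.26 (SE 0.53, adjusted p = 0.821).

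H2-Ab1 (ENSMUSG00000073421, chromosome 17, 34263209 to 34269418, plus strand), the beta chain that pairs with it, had 454 knockout reads against 1438 for control 5 and 732 for control 6. In CPM it stood at 24.9 against 80.3 and 54.2, with a log2 fold change of -1.44 (SE 0.50, adjusted p = 0.680). The controls were 0.57 apart on the log2 scale, and the knockout had a log2 ratio of -1.12 to the nearer. H2-Eb1 (ENSMUSG00000060586, chromosome 17, 34305877 to 34316199, plus strand), the beta chain of I-E, had 140 reads against 325 and 250. This gave 7.66 CPM in the knockout library against 18.3 ± 0.263 CPM (SD, n = 2 controls). The controls were nearly equal, and the log2 fold change was -1.26 (SE 0.67, adjusted p = 0.930). C57BL/6 mice make no I-E at the surface, since their I-E alpha gene is a pseudogene. That pseudogene, H2-Ea-ps, was counted too, with 59 reads in the knockout library against 184 and 110.

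Cd74 (ENSMUSG00000024610, chromosome 18, 60803848 to 60812646, plus strand) had 501 reads in the knockout library, against 988 in control 5 and 372 in control 6. The controls themselves were 55.2 and 27.6 CPM, a log2 difference of -0.998 (control 6 over control 5). The knockout at 27.4 CPM had a log2 ratio of -1.01 to control 5 and -0.01 to control 6. The log2 fold change was -0.59 (SE 0.57, adjusted p = 1.00). The sum of the 3 chains and Cd74 was 75.0 CPM in the knockout library, against 191 CPM in control 5 and 135 CPM in control 6.

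Ciita (ENSMUSG00000022504, chromosome 16, 10488178 to 10527564, plus strand) was barely detected. It had 6 reads in the knockout library (0.328 CPM, interval 0.12 to 0.715), 0 in control 5 (up to 0.206 CPM by the same interval) and 15 in control 6 (1.11 CPM, interval 0.622 to 1.83). The knockout value lay between the controls, and the controls' own intervals do not overlap, so no genotype difference in Ciita could be read from these libraries.

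H2-DMa (ENSMUSG00000037649, chromosome 17, 34135182 to 34139101, plus strand), the alpha chain of the peptide exchange factor, was the only member above both controls. It had 1576 reads in the knockout library against 1312 in control 5 and 1032 in control 6, or 86.3 CPM against 74.9 ± 2.25 CPM (SD, n = 2). The log2 fold change was 0.20 (SE 0.39, adjusted p = 1.00). Its beta partner H2-DMb1 (ENSMUSG00000079547, chromosome 17, 34153072 to 34160230, plus strand) had 468 reads against 899 and 588, or 25.6 CPM against 46.9 ± 4.70 CPM, with a log2 fold change of -0.87 (SE 0.48, adjusted p = 0.931).

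The ratio of H2-DMb1 to H2-DMa does not depend on how libraries are scaled. Per kilobase of transcript it was 0.351 in the knockout library, against 0.809 in control 5 and 0.673 in control 6, a log2 difference of -1.21 and -0.94. H2-DMb1 and its neighbour H2-DMb2 are close copies: 22.7% of the 50-base stretches of H2-DMb1 transcripts also occur in H2-DMb2, so the counting could divide reads between them. Their summed reads were 842 in the knockout library against 1492 and 918, or 46.1 CPM against 83.3 and 68.0. The other members share at most 8.43% of such stretches with another gene. For H2-DMa that gene is Brd2 on the opposite strand, but none of the overlap lies within the gene positions the tables use.

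The chains also varied against Cd74. Per kilobase of principal transcript, H2-Ab1 stood at 1.05 times Cd74 in the knockout library, against 1.69 in control 5 and 2.29 in control 6. With all annotated exon bases as lengths the same ratios were 0.627, against 1.01 and 1.36, so which of the pair is higher depends on the length used. The ratio of H2-Ab1 to H2-Aa in the knockout library, 1.54, lay between 2.00 in control 5 and 1.46 in control 6 (2.59 between 3.38 and 2.46 with all exon bases). The knockout ratio was thus the lowest for H2-DMb1 to H2-DMa and for each chain to Cd74, but not for H2-Ab1 to H2-Aa. For H2-Eb1 to Cd74 it was close to control 5, at 0.236 against 0.278, with 0.568 in control 6 (principal transcript lengths). For H2-Aa to Cd74 it was 0.686, against 0.846 in control 5 and 1.57 in control 6.

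**Figure D2:**
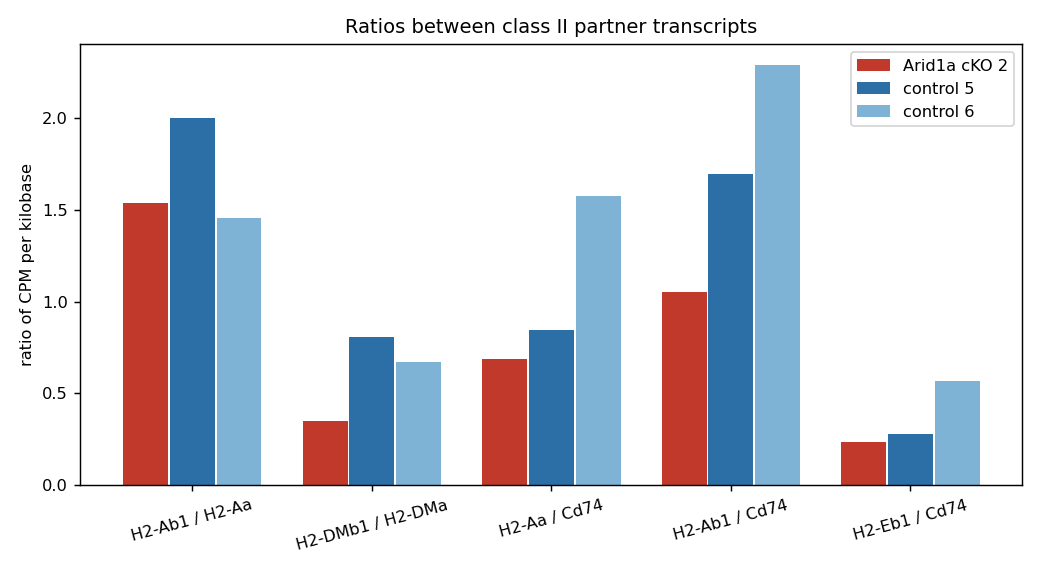
Ratio of CPM per kilobase between partner transcripts (y axis from 0) in the knockout library, control 5 and control 6, 1 bar a library with no replicate error. H2-DMb1 to H2-DMa is 0.351 in the knockout library, with 0.809 and 0.673 in controls, and H2-Ab1 to H2-Aa lies between the controls.

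Cd86 (ENSMUSG00000022901, chromosome 16, 36603869 to 36666081, minus strand) was the most abundant member per kilobase of transcript. It had 9760 reads in the knockout library against 20532 in control 5 and 13565 in control 6, which is 534 CPM (interval 524 to 545) against a control mean of 1076 ± 100.2 CPM (SD, n = 2). The log2 fold change was -1.01 (SE 0.34, adjusted p = 0.669), where the controls were 0.19 apart. Cd80 (ENSMUSG00000075122, chromosome 16, 38458933 to 38486933, plus strand), the other ligand of CD28 and CTLA-4, had 120 reads against 232 and 243, or 6.57 CPM against 12.96 and 18.0 (log2 fold change -1.24, SE 0.73, adjusted p = 0.955). Cd40 (ENSMUSG00000017652, chromosome 2, 165055627 to 165072948, plus strand), a receptor of the TNF receptor family, had 15 knockout reads, where control 5 had 0 and control 6 had 12. At 0.821 CPM the knockout was close to control 6 at 0.889 CPM, while no read was counted in control 5.

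**Figure D3:**
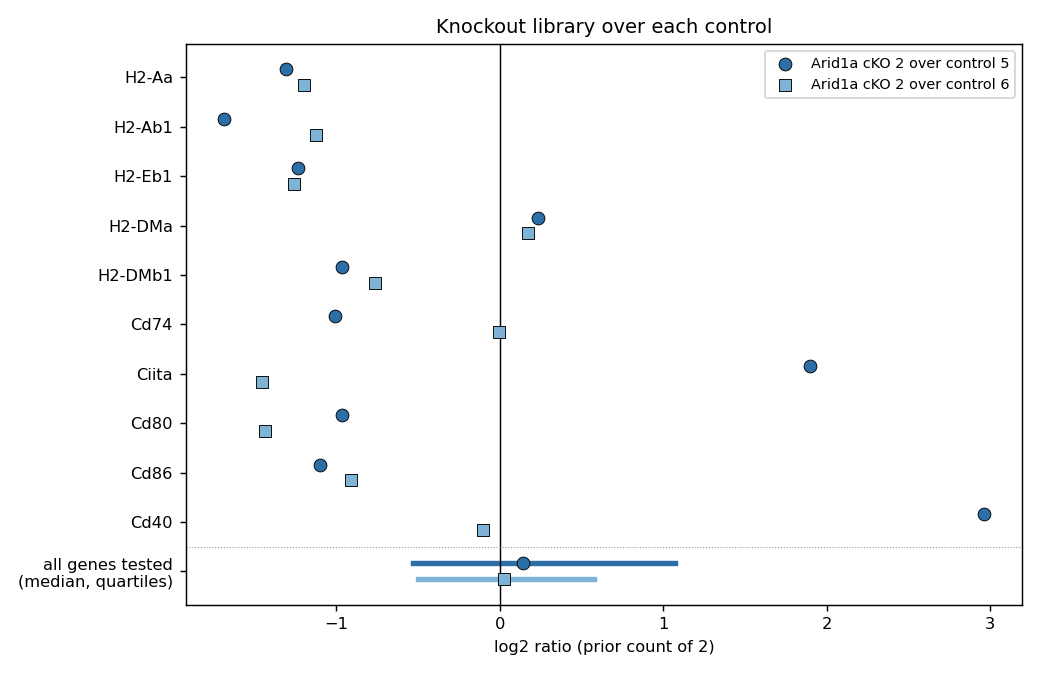
Log2 ratio of the knockout library to control 5 (circles) and to control 6 (squares) for each gene, with the median and quartiles of all genes tested in the bottom line. H2-Aa, H2-Ab1, H2-Eb1, H2-DMb1, Cd80 and Cd86 lie left of the lower quartiles of -0.53 and -0.50 with both controls, while Ciita and Cd40 change side with the control.

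Levels were compared between genes only per kilobase, with GENCODE M21 principal transcripts as lengths, which differ in part from the gene models counted. Cd86 was first in all 3 libraries, at 210.4 CPM per kilobase in the knockout library, beside 452 and 396 in controls. In the knockout library H2-DMa came next at 52.0, then H2-Ab1 at 20.5, Cd74 at 19.5 and H2-DMb1 at 18.2, whose counting intervals overlap, then H2-Aa at 13.3, H2-Eb1 at 4.59 and Cd80 at 2.07. In control 5, H2-Ab1 at 66.3 stood above H2-DMa at 44.2, and in control 6 they were level within counting error at 44.8 and 46.1. Cd40 and Ciita were last throughout, at most 0.298 CPM per kilobase. With all annotated exon bases within the deposited gene positions as lengths, Cd86 stayed first and Cd40 and Ciita last, but the order between them changed. H2-Ab1 then had 10.3 CPM per kilobase in the knockout library and ranked below Cd74 at 16.4 and H2-DMb1 at 15.2, and H2-Aa had 3.96. By these lengths H2-DMa, at 27.6, ranked 5 in control 5, and in control 6 it stood at 28.8 above H2-Ab1 at 22.4.

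Of 5 other class II chain and loading genes listed, 4 were tested and all 4 were below both controls, where 31.1% of all genes were (0 called, 0 at an unadjusted p under 0.05, median log2 fold change -1.31). H2-Ob, the beta chain of the DM inhibitor H2-DO, had 6.73 CPM in the knockout library against 14.5 ± 3.43 CPM in controls (SD, n = 2). Its partner H2-Oa (chosen with its values in view) had 25 reads against 96 and 70, though 22.8% of its exon bases are covered by a gene on the opposite strand. H2-DMb2 had 20.5 CPM against 33.1 and 24.5.

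Factors that act at the class II promoter had a median log2 fold change near that of all genes tested. They lay between the controls more often, and above both less often, than all genes did. Of 12 listed promoter factors and chromatin partners, 11 were tested, 3 were below both controls, 1 above and 7 between, beside 31.1%, 38% and 30.9% of all genes. Their median was 0.02 on the log2 fold change scale, and none was called. The acetyltransferase Crebbp, a CIITA partner, had 142 CPM against a control mean of 262 ± 28.1 CPM (SD, n = 2), and Creb1, which binds the X2 box, had 56.4 against 84.7 ± 11.3. Nfyb, a subunit of NF-Y, had 28.4 CPM against 37.7 and 26.6, and the acetyltransferase Kat2b had 10.02 against 18.5 and 8.82. Rfx5, an RFX subunit that can be lost in bare lymphocyte syndrome (chosen with its values in view), had 39 reads, against 16 for control 5 and 40 for control 6. A gene on the opposite strand covers 26.8% of Rfx5 exon bases.

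Genes that carry the interferon gamma signal to Ciita, or restrain it, were more often above both controls than below. Among all genes tested, 38% lay above both controls and 31.1% below both. Of 14 listed, 13 were tested, 9 above both controls and 2 below, the median log2 fold change being 0.33, with 0 called (0 at an unadjusted p under 0.05). Il10ra, a receptor chain for the restraining cytokine IL-10, had 128 CPM in the knockout library against 39.3 and 100.5. The myeloid factor Spi1 had 144 CPM, against 122 for control 5 and 55.6 for control 6. Irf8, a macrophage factor that binds with it, had 284 CPM against 330 and 526, and Prdm1, a repressor of Ciita in B lineage cells, had 18.3 against 31.6 ± 4.75 CPM in controls (SD, n = 2).

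Processing genes lay on both sides, where 31.1% of all genes tested lay below both controls and 38% above both. Of 11 endosomal proteases and related genes, all tested, 5 were below both controls and 4 above, the median log2 fold change being -0.33, with none called (4 at an unadjusted p under 0.05). Cst3, which encodes the cathepsin inhibitor cystatin C, had 808 CPM against a control mean of 299 ± 45.1 CPM (SD, n = 2), and the protease Ctsd had 482 against 235 and 299. Ctsh had 22.6 CPM against 75.5 ± 4.25, and Ctsb had 11009 against 18002 ± 1390. The gene Gm49369 covers 34.4% of Ctsd exon bases, and 12.7% of those of Ctsb lie under a gene on the opposite strand. Ctss, the protease that completes CD74 cleavage (chosen with its values in view), had 1957 CPM against 2455 ± 67.3.

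Of 11 genes for class II and CD86 trafficking and turnover, 8 were below both controls and 3 above, where 31.1% and 38% of all genes were. Their median log2 fold change was -0.49, with none called and 3 at an unadjusted p under 0.05, a level that 6.00% of all genes reached. The tetraspanins Cd81 and Cd82 had 216 and 29.7 CPM in the knockout library against 795 ± 53.9 and 98.2 ± 20.3 CPM in controls (SD, n = 2). Cd83, which in mice protects class II and CD86 from degradation, had 1496 CPM against 3679 and 2233, and Arl14ep had 55.3 against 112 and 86.5. March1, the ubiquitin ligase that removes class II and CD86 from the surface (chosen with its values in view), had 123 CPM against 139 and 205.

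Among CD74 partners, 4 of 5 listed were tested, 2 below both controls and 2 above, none called. Cxcr2, a chemokine receptor that can pair with CD74, had 140 knockout reads against 1318 and 1122 in the controls, a log2 fold change of -3.35 (SE 0.52, adjusted p = 0.109). The cytokine Mif, a CD74 ligand, had 63.8 CPM against a control mean of 29.4 ± 4.88 CPM (SD, n = 2), and Cd44, its signalling partner, had 39.4 against 53.4 ± 8.27. Over all genes tested, 31.1% lay below both controls and 38% above both.

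Further co-stimulators and co-inhibitors split, with 6 of 13 tested (18 listed) below both controls and 5 above, a median log2 fold change of -0.22, none called and 1 at an unadjusted p under 0.05. For this list and the CD40 adaptors below, the shares over all genes tested were 31.1% below both controls and 38% above both. The PD-1 ligand Cd274 had 34.4 CPM in the knockout library against 13.2 ± 1.54 CPM in controls (SD, n = 2), with 14.1% of its exon bases under a gene on the opposite strand. Tnfrsf14 had 58.3 CPM against 15.7 and 34.7, Havcr2 (TIM-3) had 653 against 401 ± 81.3, and the 4-1BB ligand Tnfsf9, with 15.6% of its exon bases under such a gene, had 6.13 against 27.1 and 8.74. Pdcd1lg2, the other PD-1 ligand, had 28 reads against 0 in both controls, at least 7.86-fold higher with controls taken at 3 reads per library. Of 9 adaptors of CD40, 3 were above and 3 below, with a median of -0.0045, none called and 1 at an unadjusted p under 0.05. The NF-kB-inducing kinase gene Map3k14 had 54.9 CPM against 14.1 and 29.5, and Nfkb2 had 43.1 against 5.64 and 23.3. Traf6 had 24.8 against 37.6 ± 4.80 CPM and Traf2 had 72.5 against 82.6 ± 9.02. Traf1 had 35 reads against 0 in both controls, at least 9.83-fold higher by the same bound. Pdcd1lg2 and Traf1 are named after their values were seen.

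**Figure D4:**
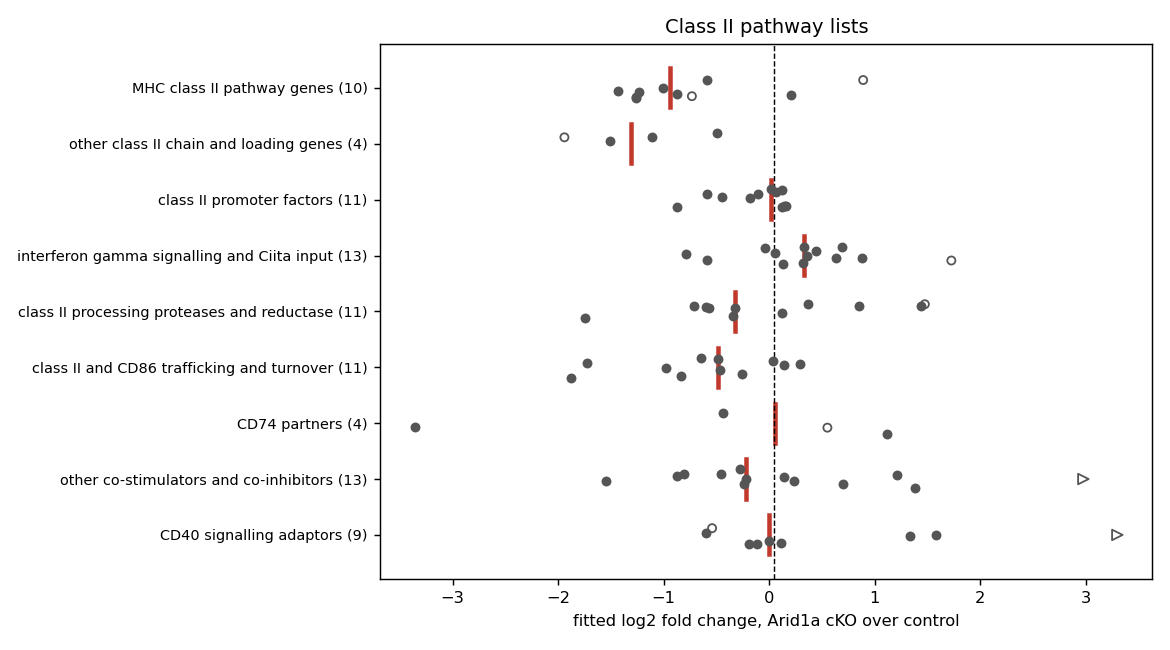
Fitted log2 fold change of each tested gene by list (number tested in brackets), with the list median as a red bar and the median of all genes, 0.05, as a dashed line. Filled points have a mean of 5 CPM or more, open points less, and triangles are lower bounds at 3 reads per library for genes with 0 reads in both controls. The class II genes at the top lie mostly left of the line, and the promoter factors lie around it.

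Cells other than microglia also carry class II, so marker lists were read in the same libraries. The sorted cells had microglia transcripts: all 10 markers were detected in every library, 8 of them below both controls in the knockout, among them Siglech, which was called lower at 58.3 CPM, with a control mean of 988 ± 98.1 CPM (SD, n = 2, edgeR adjusted p = 0.0324). Of all genes tested, 31.1% lay below both controls and 38% above both. The median log2 fold change of the 10 microglia markers was -1.09, beside -0.94 for the class II genes and 0.05 for all genes tested. The microglia sum was 14438 CPM in the knockout library, 19811 CPM in control 5 and 27612 CPM in control 6. The Siglech call was lost with DESeq2 size factors, with upper-quartile factors and without the low-count filter. Dendritic cell markers summed to 18.8 CPM in the knockout library, against 39.0 CPM in control 5 and 48.0 CPM in control 6. Of 8 tested, 5 were below both controls and 1 above. The dendritic cell factor Zbtb46 (chosen with its values in view) had 0 knockout reads against 18 and 45 in the controls, a value at least 13.2-fold below that of controls when set to 3 reads. Itgax, an integrin that some microglia also carry, had 12 reads against 118 and 243. Other markers of the list were not below both controls: Cd24a had 124 reads against 104 and 60, Xcr1 had 32 against 70 and 4, and Cd209a had 13 against 19 and 0.

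B cell markers summed to 25.7 CPM in the knockout library, with control sums of 166 and 157 (2 of 4 tested below both controls, 1 above), mostly from Cd79b, which had 399 reads against 2811 and 1997. Pax5 and Fcer2a were not analysed here, and Ms4a1 had 9 reads against 0 and 0. Border macrophage markers summed to 583 CPM against 666 and 960, and monocyte markers to 295 against 209 and 237 (2 and 1 of 8 tested below both, 3 of 8 above in each). Beside these counts, 31.1% of all genes tested lay below both controls and 38% above both. T and NK cell markers summed to 1.26 CPM against 0.614 and 0.593, and neural markers to 174 against 158 and 211. The T and NK cell sum rests on only 23 reads against 11 and 8, from 2 of 8 listed markers. The dendritic cell, B cell, microglia and border macrophage sums were thus lower in the knockout library than in either control, as were the class II chains. The border macrophage markers were split. Stab1, at 244 CPM against 302 and 654, and Clec12a, with 183 reads against 567 and 240, were the 2 below both controls. Mrc1 had 243 CPM against 242 and 216, Clec4n 20.4 CPM against 11.6 and 12.2, and Lyve1 122 reads against 0 and 13. These were the 3 above both. The monocyte sum and the T and NK cell sum were higher than in either control, and the neural sum lay between. The part of any of these cells in the class II values was not tested.

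**Figure D5:**
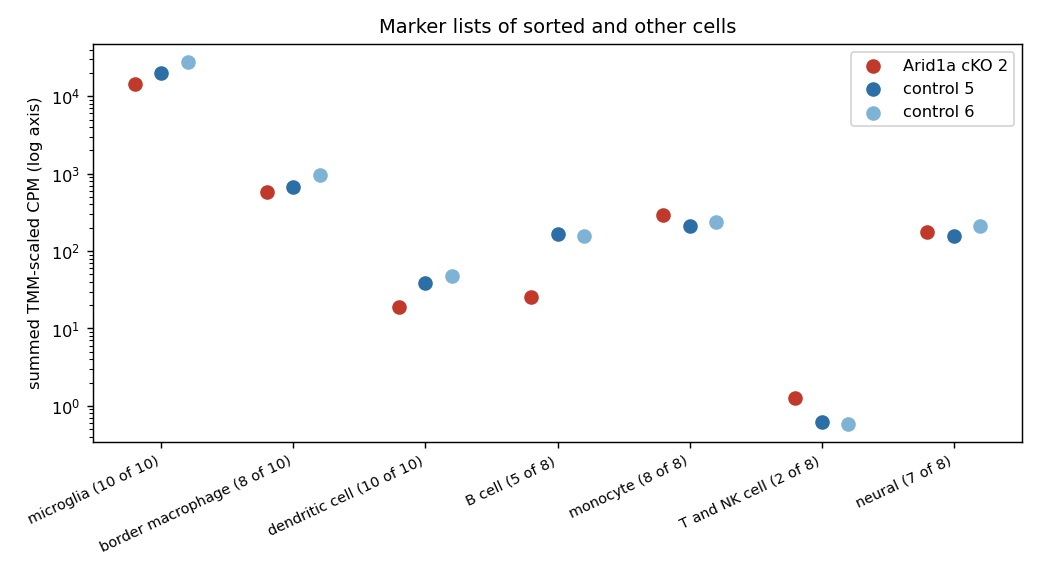
Summed TMM-scaled CPM of marker lists (log axis) in the knockout library, control 5 and control 6, with the number of listed markers found in either table in brackets. The dendritic cell sum is 18.8 CPM in the knockout library, beside 39.0 and 48.0 in controls, while the monocyte sum, 295 CPM, is highest in the knockout library.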

How the data were processed

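RNA of the sorted cells was sequenced in 4 samples, of which 3 libraries are in the 2 tables used here. The build mm9 and the tools TopHat2 2.0.12, HTSeq 0.6.0 and Bowtie2 2.2.3 are named, per the submitters' processing notes, without roles. The deposited gene positions are not of that build: 89.9% of 18480 gene IDs had the position of GENCODE M21 on GRCm38, and 99.9% overlapped it. The authors deposited raw read counts per gene, CPM (a count of 0 set to 0.5 reads), knockout over control as a fold change and in log2, and a p-value. Their test is not given in the sources used here. Per the labels' protocols the kit was TruSeq RNA, and whether counting used strand is not given, so reads of genes on opposite strands may be mixed.

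Counts of the 16655 shared genes were fitted with edgeR 4.0.16 (R 4.3.3): filterByExpr, TMM, quasi-likelihood F test, two-sided, Benjamini-Hochberg over 15236 genes, threshold 0.05. The knockout library has no replicate, so spread is estimated from the controls alone (1 residual degree of freedom, common dispersion 0.438). SE is the fold change over the root of F. Ratios to single controls used a prior count of 2. Members and lists were chosen with earlier results of these data known. The rule named Arid1a, the 10 members and, of each other list, the 4 genes of smallest p whose mean reached 5 CPM, plus any gene called. Alternatives were DESeq2 1.42.0, other scalings, other filters and each control alone. All 21 symbols that had become dates were restored from the gene ID.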

Additional observations from a re-analysis of the deposited data

How the results depend on the processing

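No member was called under any of the 6 other fits that gave it an adjusted p (smallest adjusted p = 0.111, DESeq2, for Cd86). Ciita and Cd40 have none in the DESeq2 test and are left out by the 5 CPM filter. No log2 fold change turned its sign, over all 6 fits for the other 8 members and over the 4 that tested Ciita and Cd40. The count of genes called in all, 6, was 0 with DESeq2 size factors, 0 with upper-quartile factors, 0 with no low-count filter (895, 818 and 948 at an unadjusted p under 0.05), 44 with at least 5 CPM in 2 libraries, 10 with genes of either table and 215 with the DESeq2 Wald test. The cause was not tested. Among genes named beside the members, the DESeq2 test called Cst3 higher and Ctsh, Cd81, Cd82 and Cxcr2 lower, and Cxcr2 was also called with the 5 CPM filter (adjusted p = 0.0266). The members' median log2 fold change of -0.94 was -1.11 over the 8 members that pass the 5 CPM filter, which leaves out Ciita and Cd40, and -1.02 and -0.99 against control 6 and control 5 alone. In settings added after the values were seen, 7 members lay below both controls with DESeq2 size factors and 6 with library totals or upper-quartile factors, 9 lay below control 6 and 7 below control 5. No paired analysis was possible because the groups share no replicate number. Depth limits Ciita and Cd40, with at most 15 reads in any library, whose log2 ratio to control 5 was positive and to control 6 negative. The controls themselves differed 2.002-fold in Cd74.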

Other observations

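The genes whose levels over the 3 libraries were most like the mean profile of H2-Aa, H2-Ab1, H2-Eb1 and Cd74 were 4930402H24Rik, Ccdc163, Zcwpw1, Usp8 and Lat2. Likeness was the distance between centred log2 CPM values, from 0.0154 for 4930402H24Rik to 0.0481 for Lat2, among 9600 genes at a mean of 5 CPM or more. Over only 3 libraries such profiles are common, and 250 genes lay within a distance of 0.25. Lat2, an adaptor of immune receptors, had 403 reads in the knockout library against 995 in control 5 and 582 in control 6.

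In the authors' deposited table against control 5, Cd40 was the 1 member marked as significant, with 15 reads against 0 and a p-value of 4.72e-05. Its fold there, 32.3, rests on the 0 being set to 0.5 reads. Marked genes all differed by more than 3-fold, and members with far smaller p-values in the authors' deposited table, such as H2-Ab1 (fold 0.340, p-value 3.69e-104), were not marked. In the authors' deposited table against control 6 no member was marked, and Cd40 had a p-value of 0.995. These p-values compare single libraries and not the genotypes.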
